A study of Mus musculus with 23 samples.

Results

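Tight junctions were described here through 9 genes, namely the claudins Cldn1, Cldn3, Cldn4 and Cldn7, occludin (Ocln), the adhesion receptor F11r, the scaffold genes Tjp1 and Tjp3, and cingulin (Cgn). The members were given by name, and their probe sets were those that the platform annotation ties to 1 of these symbols and to no other gene. That gave 18 probe sets for the 9 genes, out of 45037 probe sets and 18193 genes with such a probe set on the array. Each gene was read from the probe set with the highest mean over the lines, and the other 9 probe sets served as a check. All 9 genes were compared with Cdh1, which encodes E-cadherin.

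The study profiled 23 cell lines of murine pancreatic ductal adenocarcinoma (PDAC), each on 1 Affymetrix Mouse Genome 430 2.0 array. The lines were cultured at low passage and received no drug before RNA was taken. Per the study's methods such lines were established from mice in which a Cre driver active in the pancreas (Ptf1a Cre or Pdx1-Cre) switches on an engineered oncogene in pancreatic cells, so that all groups carry one. The labels give no genotype, age or sex of the mice, so lines were not grouped by these.

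The names of 12 lines begin with PPT and those of the other 11 with another prefix (ASC, B, HEP, HEP2, LN1, PUL or PUL3), which the labels do not explain. The number in the name was read as the mouse, which gave 14 mice. Of these, 5 mice gave 14 of the lines, and 4 mice gave both kinds of line. The name B-152727 was read as mouse 15272. Values were log2 signals between 0.59 and 14.39 with a median of 3.76 over all probe sets and lines, and a signal below that median was not taken to be above background. That median is not a measured background, so a signal above it does not by itself show expression. The 2 lines whose arrays correlated least with the others were ASC-5193 (median r of 0.936) and ASC-53909 (0.939), against at most 0.976.

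Tight junctions close the space between neighbouring epithelial cells near the apical surface. Claudins form the sealing strands or, for some members, pores in them, while occludin and F11r (junctional adhesion molecule A) lie in the membrane beside them. The zonula occludens proteins Tjp1 (ZO-1) and Tjp3 (ZO-3) and cingulin tie these membrane proteins to actin. E-cadherin builds the adherens junction below, and its loss marks carcinoma cells that turn from an epithelial to a mesenchymal form.

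Cdh1 divided the lines into separate clusters. Its signal lay between 2.22 and 6.48 in 6 lines from 6 mice (PPT-3250, ASC-5193, PPT-16992, PPT-17728, PPT-5320 and ASC-53909, the first 3 of them not above background) and between 10.23 and 11.81 in the other 17 lines from 9 mice, with a gap of 3.75 log2 units between them. The 6 lines are called Cdh1-low and the 17 lines Cdh1-high below, as a description only, and no test was made between them. The lines, all labelled as pancreatic cancer, were checked for keratins and Epcam. Krt8 ranged from 3.44 to 13.75 and was lowest in ASC-5193, where Krt18 stood at 2.46, Krt19 at 2.87 and Epcam at 3.09, all below the array median. In that line none of the 5 epithelial markers was above background, although its label calls it pancreatic cancer like the rest. Krt8 lay at 7.53 in PPT-17728 and at 12.15 or more in the other 21 lines. The other markers were lower in the Cdh1-low lines. Epcam was 2.89 to 3.74 there, below background in all 6, and 3.69 to 11.70 in the Cdh1-high lines. Krt19 was 2.87 to 9.83 against 10.29 to 13.18, and Krt18 2.46 to 12.80 against 12.36 to 13.74.

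**Figure D1:**
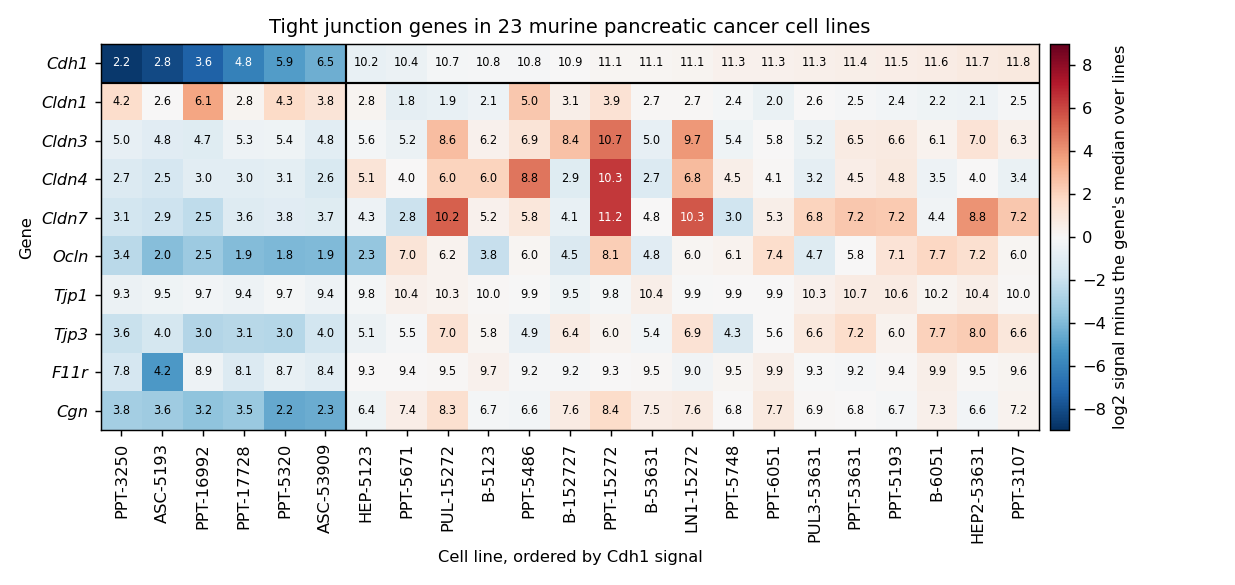
Log2 signal of Cdh1 and the 9 tight junction genes (rows) in each of the 23 lines (columns, ordered by Cdh1). Numbers are log2 signals, colours show the signal minus that gene's median over the lines, and the vertical line marks the gap in Cdh1. Ocln, Tjp3 and Cgn are blue in the 6 lines left of the gap, Tjp1 is nearly even, and Cldn3, Cldn4 and Cldn7 are darkest red in PPT-15272.

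Cldn4, Cldn7 and Cldn3 were the most uneven members among the Cdh1-high lines, with SDs of 2.08, 2.55 and 1.64, against at most 1.51 for the other 6 genes. Cldn4, a sealing claudin of simple epithelia, ranged from 2.47 in ASC-5193 over a median of 3.96 to 10.30 in PPT-15272. All 6 Cdh1-low lines had it below background (2.47 to 3.06), as had 5 of the 17 Cdh1-high lines, so 12 lines in all were above background. Only PPT-15272 and PPT-5486 (8.78) exceeded a signal of 7.

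Cldn7, which lies along the lateral membrane as well as in the junction, went from 2.51 in PPT-16992 over a median of 4.78 to 11.16 in PPT-15272. The Cdh1-low lines lay between 2.51 and 3.76 and none was above background. Of the 17 Cdh1-high lines, 15 were above background, and PPT-5671 (2.82) and PPT-5748 (2.97) were not, although their Cdh1 signals were 10.38 and 11.26. The SD over the 23 lines was 2.60, against a median SD of 0.28 over all probe sets.

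Cldn3, another sealing claudin, was above background in all 23 lines on the probe set used, from 4.70 in PPT-16992 over a median of 5.77 to 10.65 in PPT-15272. It lay between 4.70 and 5.36 in the Cdh1-low lines, and 13 of the 17 Cdh1-high lines exceeded their highest value. The 4 highest signals were those of the 4 lines of mouse 15272, at 10.65, 9.65, 8.58 and 8.41. The 4 probe sets of Cldn3 followed one another closely, with r of 0.99 between the first and each of the others. The lowest signals of the others were 3.48, 3.29 and 2.60, not above background, so signal in all 23 lines rests on 1 probe set.

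Cldn1, a claudin of many epithelia, was low on this array and ordered the lines differently. Its signal ranged from 1.78 in PPT-5671 over a median of 2.60 to 6.12 in PPT-16992, and 5 of 23 lines were above background. These were the Cdh1-low lines PPT-16992, PPT-5320 (4.34) and PPT-3250 (4.16), and the Cdh1-high lines PPT-5486 (5.04) and PPT-15272 (3.91). The next probe set of Cldn1 reached at most 3.57, so the higher signals rest on 1 probe set.

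Ocln, a membrane protein that regulates the junction rather than sealing it, ranged from 1.79 in PPT-5320 over a median of 5.84 to 8.07 in PPT-15272. The Cdh1-low lines lay between 1.79 and 3.44 and none was above background. Of the Cdh1-high lines 16 exceeded 3.44, and HEP-5123 (2.33) was the exception. The other line of that mouse, B-5123, had the next lowest signal of the Cdh1-high lines at 3.80.

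F11r, which joins neighbouring cells by binding its own kind, was far lower in ASC-5193 than in any other line. The Cdh1-high lines lay between 9.02 and 9.89, and 5 of the 6 Cdh1-low lines between 7.81 and 8.89. ASC-5193 stood at 4.21, which is 3.60 log2 units below the next line. The other F11r probe set was dim, with no signal over 4.6.

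The scaffold genes differed from each other. Tjp1 was bright in every line, from 9.35 in PPT-3250 over a median of 9.91 to 10.66 in PPT-53631, with an SD of 0.39. The Cdh1-low lines filled the lower end (9.35 to 9.74), and 16 of the 17 Cdh1-high lines exceeded 9.74. Tjp3, the scaffold restricted to epithelia, ranged from 2.98 in PPT-16992 over a median of 5.63 to 7.95 in HEP2-53631. Its Cdh1-low lines (2.98 to 4.05) and Cdh1-high lines (4.30 to 7.95) did not overlap.

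Cgn, which binds the ZO proteins and myosin, showed the clearest division. The 6 Cdh1-low lines lay between 2.24 and 3.76, none of them above background, and the 17 Cdh1-high lines between 6.43 and 8.44. The median of the Cdh1-high lines was 7.16. The Cdh1-low and Cdh1-high lines did not overlap for Tjp3, F11r and Cgn. The share of all probe sets without overlap was not counted, so this is not shown to be particular to these genes. Other genes did not overlap either, among them Cldn2 (up to 5.02 against 7.82 or more) and Lsr (5.13 against 7.90). The same held for Crb3 (5.31 against 6.58) and Krt19 (9.83 against 10.29), while others such as Cldn12 and Pard3 did overlap.

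The promoters of 5 members are shown because they stand for the different patterns, namely F11r and Cgn (no overlap across the Cdh1 gap), Tjp3 (no overlap either, with a wide spread among the Cdh1-high lines), Cldn4 (high in few lines) and Cldn1 (highest in a Cdh1-low line). Each run holds the 250 bases before the start of the gene, 5′ to 3′ on its own strand, from RefSeq on build GRCm38.p6, and the most upstream start was used where RefSeq gave several. Capitals mark matches to the E-box CAGGTG, read on both strands (CACCTG on the other), the site type bound by the E-cadherin repressors of the Snail and Zeb families.
F11r, chr1:171437311-171437560, + strand: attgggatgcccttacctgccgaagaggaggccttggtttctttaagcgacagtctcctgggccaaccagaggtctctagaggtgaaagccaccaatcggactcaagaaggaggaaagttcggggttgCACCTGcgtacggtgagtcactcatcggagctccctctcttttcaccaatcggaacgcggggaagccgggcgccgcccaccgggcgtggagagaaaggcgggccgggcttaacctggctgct
Tjp3, chr10:81291582-81291831, - strand: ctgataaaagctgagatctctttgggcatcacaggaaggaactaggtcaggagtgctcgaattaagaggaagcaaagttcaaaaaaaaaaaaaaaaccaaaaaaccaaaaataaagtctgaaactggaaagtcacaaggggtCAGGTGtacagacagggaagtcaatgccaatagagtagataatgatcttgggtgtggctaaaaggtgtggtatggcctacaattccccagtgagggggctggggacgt
Cldn4, chr5:134946935-134947184, - strand: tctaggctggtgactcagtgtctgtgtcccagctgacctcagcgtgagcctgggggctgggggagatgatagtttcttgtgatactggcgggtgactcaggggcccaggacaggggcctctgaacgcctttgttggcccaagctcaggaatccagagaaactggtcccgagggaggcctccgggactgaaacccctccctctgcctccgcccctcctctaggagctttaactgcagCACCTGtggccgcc
Cgn, chr3:94786483-94786732, - strand: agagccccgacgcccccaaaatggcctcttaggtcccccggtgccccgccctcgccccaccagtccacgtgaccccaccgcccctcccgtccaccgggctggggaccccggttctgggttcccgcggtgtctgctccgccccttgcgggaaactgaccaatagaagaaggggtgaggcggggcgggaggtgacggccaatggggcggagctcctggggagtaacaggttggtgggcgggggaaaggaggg
Cldn1, chr16:26371840-26372089, - strand: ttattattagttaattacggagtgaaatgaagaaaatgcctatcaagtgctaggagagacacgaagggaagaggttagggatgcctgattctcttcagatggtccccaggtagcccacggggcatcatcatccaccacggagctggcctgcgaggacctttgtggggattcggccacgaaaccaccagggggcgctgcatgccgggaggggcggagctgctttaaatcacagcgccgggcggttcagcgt
Of the 9 members, 3 held an E-box in this window (F11r, Tjp3 and Cldn4), and 17.2% of the 32851 windows of the same length in the RefSeq table held one. Those windows include further starts of a gene, so 17.2% is not a share of genes. With the further RefSeq starts of Cldn7, Ocln and Tjp3 counted as well, 5 members held an E-box, since Cldn7 and Ocln each have 2 before their other start. The share of all genes with an E-box in any window was not counted. The F11r match lay 122 to 117 bases before the start, that of Tjp3 108 to 103 bases and that of Cldn4 14 to 9 bases. The Grainyhead-type letters AACCGGTT were found in none of the 9 windows and in 0.116% of all windows. A match is a run of letters and says nothing about binding. The starts of Cldn3 and Cldn4 lay 39.3 kb apart on chromosome 5.

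The relation to Cdh1 was tested with limma as a slope over the 23 lines, with the mouse as a random block, in log2 units of a gene for each log2 unit of Cdh1. Of the 9 members, 5 rose with Cdh1 at a Benjamini-Hochberg adjusted p under 0.05 and 0 fell. Over all 45036 probe sets, 4.89% rose and 4.58% fell. With 1 probe set for each gene, as for the members, 6.28% of 18192 genes rose and 5.89% fell. At an unadjusted p under 0.05, 8 members had a positive and 1 a negative slope, beside 10530 of the 45036 probe sets in either direction. Because of the gap, such a slope mostly carries the difference between the lines on either side of it.

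Cgn had a slope of 0.51 (SE 0.061, adjusted p = 5.26e-06), and Ocln one of 0.51 (SE 0.090, adjusted p = 0.00057). Tjp3 followed with 0.36 (SE 0.060, adjusted p = 0.000351) and F11r with 0.29 (SE 0.051, adjusted p = 0.000621). Without ASC-5193 the slope of F11r was 0.16 (SE 0.020, adjusted p = 2.15e-05). Tjp1 had the smallest slope of the 5, at 0.09 (SE 0.018, adjusted p = 0.00303). Cgn, Ocln and Tjp3 thus crossed from background or near it to clear signal along the Cdh1 scale, whereas Tjp1 moved by a small amount at a high level.

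The claudins did not pass. Cldn7 had a slope of 0.43 (SE 0.14, adjusted p = 0.0526), Cldn3 one of 0.22 (SE 0.080, adjusted p = 0.0789) and Cldn4 one of 0.28 (SE 0.12, adjusted p = 0.156). The slope of Cldn1 was negative, at −0.18 (SE 0.061, adjusted p = 0.0673). Without the lines of mouse 15272, Cldn3 (0.15, SE 0.040, adjusted p = 0.0221) and Cldn7 (0.35, SE 0.092, adjusted p = 0.0207) passed. Without ASC-5193, Cldn1 passed with a slope of −0.24 (SE 0.064, adjusted p = 0.0206).

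The other probe sets served as a check. Of these 9, 4 passed with a positive slope, namely the 3 further probe sets of Cldn3 (0.28 to 0.33, adjusted p from 0.0279 to 0.0457) and that of Ocln (0.25, SE 0.062, adjusted p = 0.0111). The dim further probe sets of F11r (0.02, adjusted p = 0.328) and Cgn (0.07, adjusted p = 0.121) did not pass. Those of Cldn1 had slopes between −0.06 and 0.01, with adjusted p from 0.084 to 0.873.

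**Figure D2:**
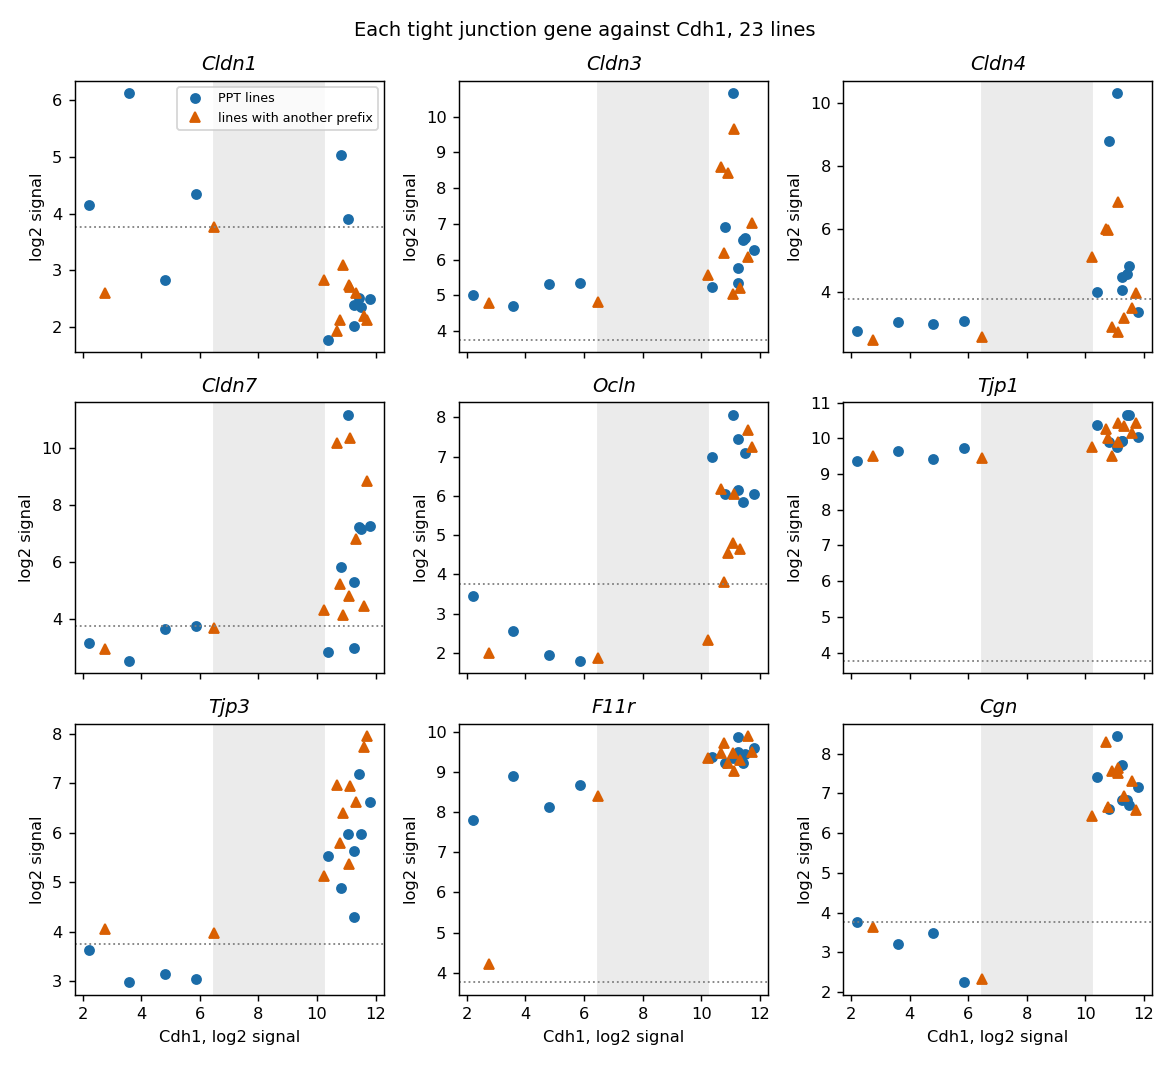
Log2 signal of each tight junction gene (y axis) against the log2 signal of Cdh1 (x axis), 1 point a line, circles for the 12 PPT lines and triangles for the 11 others. The grey band is the gap in Cdh1 between 6.48 and 10.23 and the dotted line the array median of 3.76. Cgn lies at or below 3.76 left of the band and at 6.43 or more right of it, Cldn1 is highest on the left, and the triangle at 4.21 for F11r is ASC-5193.

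In the 17 Cdh1-high lines Cdh1 spanned only 10.23 to 11.81 (SD 0.45), which limits what a slope there can show. Within these lines alone, 0 of the 9 members and 0% of all probe sets passed with limma. At an unadjusted p under 0.05, 2 members and 3110 probe sets did. These members were Ocln (slope 1.73, SE 0.71, unadjusted p = 0.0264) and Tjp3 (1.22, SE 0.49, unadjusted p = 0.0215), both with an adjusted p over 0.6 (0.666 and 0.649). The slope of Cgn was −0.12 (SE 0.30), opposite in sign to that over all lines. Cldn7 had a slope of 1.88 (SE 1.32), and of 2.40 (SE 0.78, unadjusted p = 0.00813, adjusted p = 0.394) once the lines of mouse 15272 were left out.

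In the 6 Cdh1-low lines 0 members and 0 probe sets passed with limma, and 3 members and 2718 probe sets had an unadjusted p under 0.05. Cgn (−0.35, SE 0.079) and Ocln (−0.27, SE 0.11) had negative slopes there and Cldn7 a positive one (0.22, SE 0.086), all at signals not above background.

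Epcam, another epithelial surface protein, set the lines in a different order and was used in place of Cdh1. The same test then called 6 members, all with a positive slope. Beside them, 0.675% of 45035 probe sets rose, and 190 of 18192 genes with 1 probe set each. Cldn3 had the smallest p among them, with a slope of 0.62 (SE 0.061, adjusted p = 4.53e-06), followed by Cldn7 (0.98, SE 0.15, adjusted p = 0.00315) and Cldn4 (0.79, SE 0.13, adjusted p = 0.00326). Ocln, Cgn and Tjp3 passed as well, with adjusted p of 0.014, 0.014 and 0.0332. F11r (0.27, adjusted p = 0.262) and Tjp1 (0.09, adjusted p = 0.279), which passed on Cdh1, did not pass on Epcam. The lines of mouse 15272 held the highest Epcam signals (11.70, 9.41, 8.03 and 7.11) and the highest Cldn3 signals. PPT-15272 was also highest for Cldn4 and Cldn7. The slopes on Epcam were not fitted without that mouse, so its part in them was not tested.

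Markers of other cell types moved with Cdh1 too. Of the 5 mesenchymal and fibroblast markers, 2 fell, namely Pdgfrb (slope −0.68, SE 0.16, adjusted p = 0.00675) and Cdh2 (−0.20, SE 0.052, adjusted p = 0.0154). The mean signal over these 5 markers was 8.60 to 10.93 in the Cdh1-low lines and 6.10 to 10.64 in the Cdh1-high lines, where PPT-5486 was highest. None of the 5 was below background in all lines, and their part in the slopes of the tight junction genes was not tested. Of the 5 epithelial markers, the 4 other than Cdh1 all rose. None of the 4 leukocyte, 4 endothelial and 4 acinar and islet markers passed. Of these, Ptprc, Cd79a, Pecam1, Cdh5, Tek, Cpa1 and Gcg were below background in every line. The rest were not, as Cd68 (3.92 to 7.37) and Ins2 (4.77 to 5.21) were above the array median in 23 lines. Cela1 (up to 8.98) and Kdr (up to 4.78) were so in 22 lines and Cd3e (up to 4.39) in 20. Background was not measured for each probe set, so these signals do not show that such cells or transcripts were present. Less transcript per cell and fewer cells of an epithelial kind in a culture cannot be told apart on these arrays.

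Other tight junction genes were taken from 3 lists of 45 measured genes. Of the 45, 15 rose and 2 fell with Cdh1, beside 6.28% of 18192 genes that rose and 5.89% that fell when 1 probe set was taken for each gene. The median slope was 0.046 over the 45 genes, 0.287 over the 9 members and −0.0007 over all genes.

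Of the 15 other claudins only Cldn2 passed. This claudin forms a cation pore in leaky epithelia, and it had the steepest slope of the 54 tight junction genes, at 0.93 (SE 0.083, adjusted p = 1.12e-07). Its signal lay between 2.46 and 5.02 in the Cdh1-low lines and between 7.82 and 11.66 in the Cdh1-high lines. Next by adjusted p came Cldn6 (0.35, adjusted p = 0.174), Cldn15 (0.06, 0.25), Cldn22 (0.02, 0.298), Cldn5 (0.02, 0.365) and Cldn23 (0.10, 0.4), none of which passed. Cldn8, Cldn10, Cldn11, Cldn16 and Cldn19 were below background in all 23 lines.

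Of the 10 other membrane proteins, 5 rose and 1 fell. Lsr, which marks the corners where 3 cells meet, had a slope of 0.51 (SE 0.034, adjusted p = 1.47e-09), and Marveld2 (tricellulin), which it recruits there, one of 0.37 (adjusted p = 0.00245). Igsf5 (0.40, adjusted p = 0.0041), Cxadr (0.20, adjusted p = 0.0153) and Marveld3, a relative of occludin (0.23, adjusted p = 0.0484), also rose. Jam2, a junctional adhesion molecule known from endothelium, fell with a slope of −0.33 (SE 0.098, adjusted p = 0.0319). Its signal had a median of 8.94 in the Cdh1-low lines and 6.60 in the Cdh1-high lines, the opposite order to its relative F11r.

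Of the 20 other plaque and polarity genes, 9 rose and 1 fell. Genes of the Crumbs complex, which sets the apical domain, were among those that rose, namely Crb3 (0.27, SE 0.027, adjusted p = 7.53e-07), Patj (0.38, adjusted p = 7.16e-06) and Pals1 (0.12, adjusted p = 0.00127). Of the Par complex genes, Pard6b (0.43, SE 0.058, adjusted p = 3.1e-05) and the kinase gene Prkcz (0.25, adjusted p = 0.00142) rose, whereas Pard3 (0.00, adjusted p = 0.946) and Prkci (0.01, adjusted p = 0.767) did not pass. Llgl2 (0.35, adjusted p = 1.45e-05), the scaffold genes Magi1 (0.16, adjusted p = 0.000797) and Magi3 (0.15, adjusted p = 0.0206), and the cingulin relative Cgnl1 (0.22, adjusted p = 0.0238) completed the 9. Mpdz, a scaffold with many PDZ domains, fell (−0.19, SE 0.058, adjusted p = 0.0379).

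**Figure D3:**
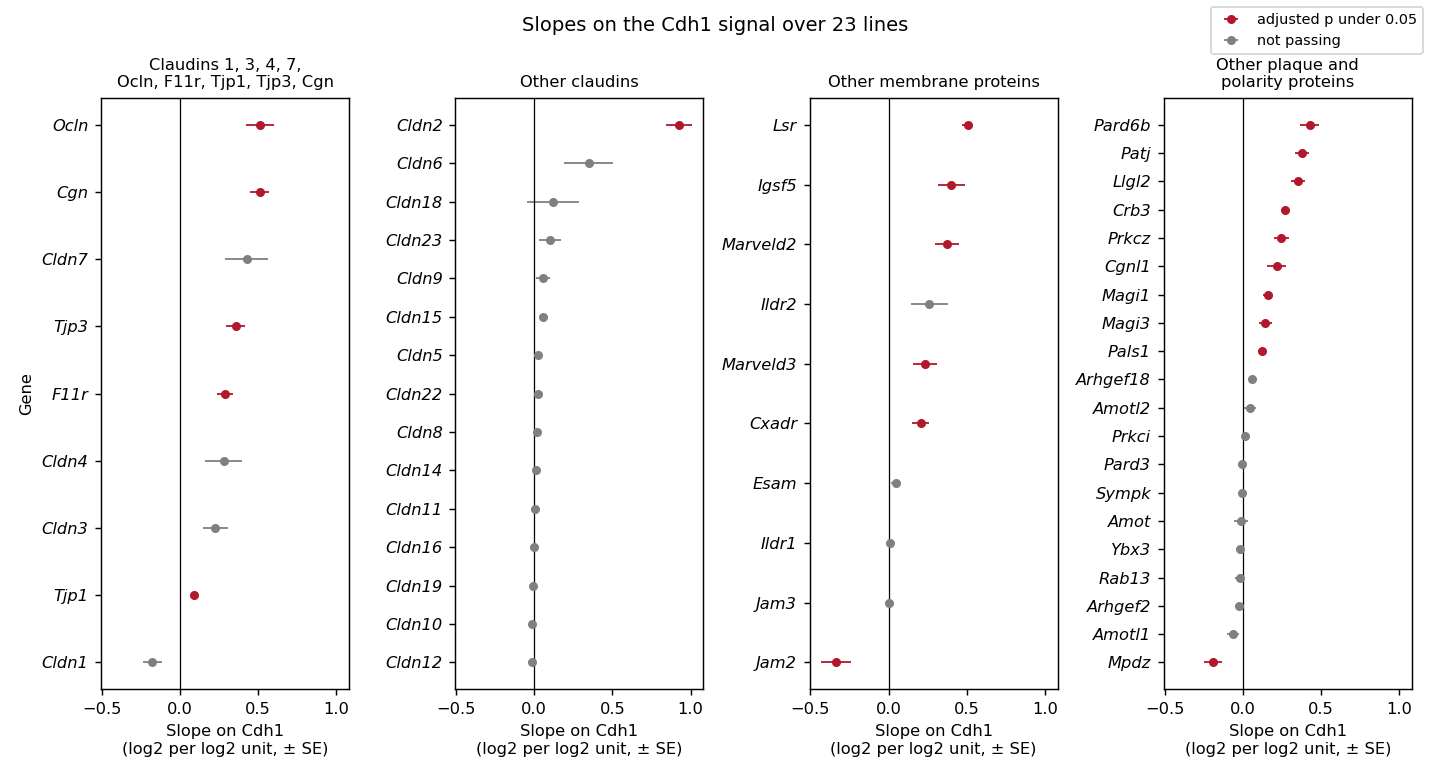
Slope of each gene on the Cdh1 signal (x axis, log2 units per log2 unit of Cdh1, points with bars of 1 SE, 23 lines) for the 9 genes and the 3 lists of other tight junction genes (y axis). Red points had an adjusted p under 0.05. Cldn2 is farthest right at 0.93, most other claudins lie at 0, and Jam2 and Mpdz are the red points left of 0.

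The PPT lines were then set against the lines with another prefix. With limma and the mouse as a random block, 0 of the 9 members and 0% of 45037 probe sets passed, while 0 members and 1649 probe sets had an unadjusted p under 0.05. The difference for Cldn4 was 1.02 (SE 0.77, adjusted p = 1), with a mean of 4.68 ± 2.40 (SD, n = 12) in PPT lines and 4.10 ± 1.59 (SD, n = 11) in the others. Ocln was 5.28 ± 2.24 (SD) in PPT lines and 4.65 ± 2.03 in the others, and Tjp3 4.91 ± 1.46 and 6.08 ± 1.35, with fitted differences of 0.94 (SE 0.81) and −0.89 (SE 0.54). The groups overlapped for all 9 genes, and the other members differed by between −0.17 and 0.64.

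Lines of the same mouse differed strongly in some members. In mouse 15272, Cldn4 was 10.30 in PPT-15272, 6.84 in LN1-15272, 5.99 in PUL-15272 and 2.86 in B-152727. Cldn7 in the same lines was 11.16, 10.34, 10.16 and 4.14, so that B-152727 was low in both while Cdh1 lay between 10.69 and 11.12 in all 4 lines. Cgn varied over 0.87 log2 units and F11r over 0.46 in these lines.

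In the mouse of PPT-5193 and ASC-5193, the lines lay on opposite sides of the Cdh1 gap, with 11.50 in PPT-5193 and 2.75 in ASC-5193. F11r was 9.44 in the first and 4.21 in the second, while Ocln (7.09 and 1.99), Cldn7 (7.16 and 2.92) and Cgn (6.70 and 3.63) were not above background in the second. Cldn1 was 2.36 and 2.60 and below background in both.

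Across the 4 mice with both kinds of line, 8 pairs of a PPT line and another line of the same mouse could be formed, which share PPT lines. Cldn4 was higher in the PPT line in 8 of 8 pairs, but in 5 of these pairs the other line was not above background, so the size of the gap was not measured there. In the other 3 pairs Cldn4 was higher by 0.59, 3.46 and 4.31 log2 units. With the mouse as a fixed block, 0 members and 0 probe sets passed, while 3 members and 1872 of 45037 probe sets had an unadjusted p under 0.05. These members were Cldn4 (2.49, SE 0.82, unadjusted p = 0.0116), Cldn3 (1.07, SE 0.45, unadjusted p = 0.036) and Ocln (1.80, SE 0.79, unadjusted p = 0.0439), each with a limma adjusted p of 0.999. Tjp3 was higher in the PPT line in 3 of 8 pairs and lower in 5, from −2.10 to 1.92. F11r differed by −0.28 to 0.33 in the 7 pairs other than PPT-5193 with ASC-5193.

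**Figure D4:**
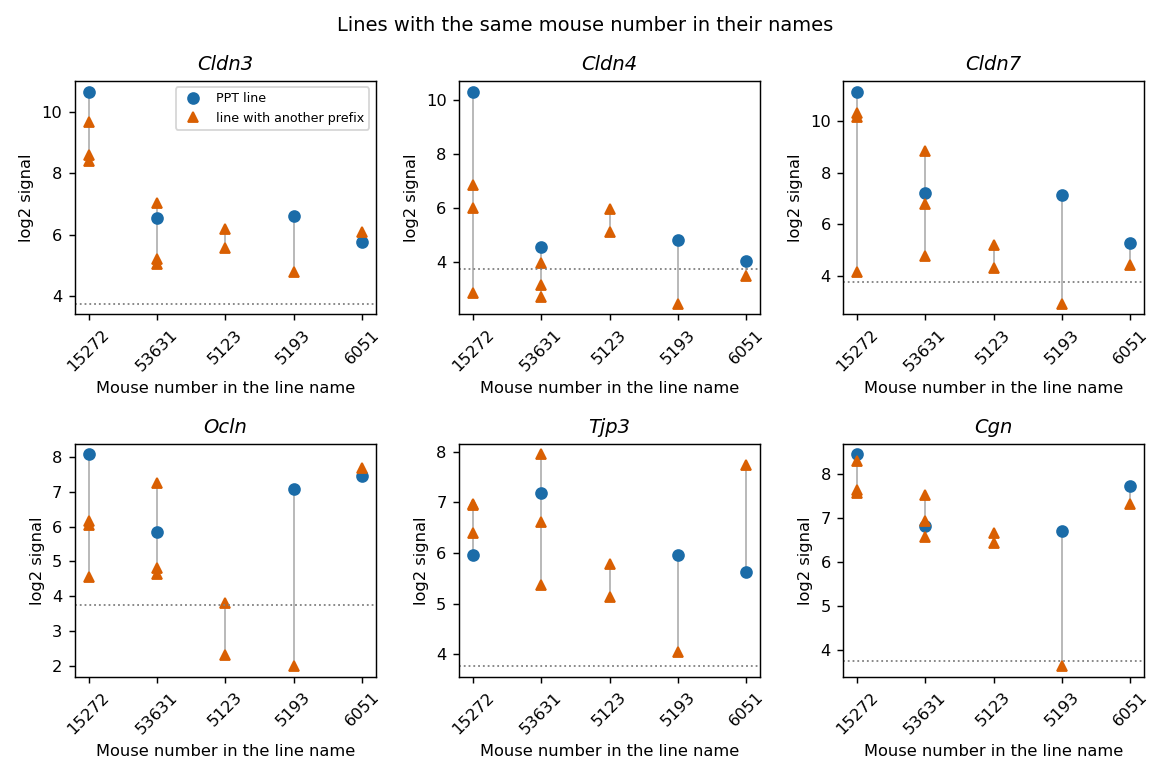
Log2 signal (y axis) of 6 tight junction genes in the 14 lines from the 5 mice with several lines (x axis, mouse number), circles for PPT lines and triangles for other lines. Grey bars join the lines of 1 mouse and the dotted line is the array median of 3.76. In mouse 15272 Cldn4 spans 2.86 to 10.30, and in the mouse of ASC-5193 Ocln and Cgn lie below the dotted line in the ASC line.

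The Cdh1 slope was also compared between the PPT lines and the others. Only F11r of the 9 members differed, beside 0.491% of 45036 probe sets. Its slope was 0.15 (SE 0.024) in PPT lines and 0.54 (SE 0.064) in the others, a difference of −0.385 (SE 0.063, adjusted p = 0.00554). Without ASC-5193, 1 of the 2 Cdh1-low lines that are not PPT lines, the difference was −0.07 (SE 0.063, adjusted p = 0.942).

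Among the 17 Cdh1-high lines the members did not form 1 block. Over their 36 pairs, Pearson r had a median of 0.184 and ranged from −0.466 for Cldn1 with F11r to 0.763 for Cldn3 with Cldn7, and 24 pairs were above 0. Without mouse 15272 the median was 0.082 and 20 pairs were above 0. These are descriptions over lines that share mice. Cldn3 with Cldn4 gave 0.657, and 0.515 without mouse 15272. Cldn4 with Cldn7 gave 0.535 and −0.027 without mouse 15272, and Cldn3 with Cgn 0.597 and −0.495, so these depended on that mouse. Cldn7 with Tjp3 gave 0.516, and 0.649 without it.

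For each member the 3 other genes with the highest Pearson r over the 23 lines were found, as a description. Cgn was followed most closely by Crb3 (0.959), Lsr (0.951) and Pard6b (0.947), all from the lists above, with r of 0.642, 0.458 and 0.523 in the Cdh1-high lines alone. Ocln was followed by Epb41l5 (0.900), Ptprf (0.875) and Marveld2 (0.858). Tjp3 was followed by Pgap1 (0.948), Tmprss2 (0.924) and Sema4a (0.924), which stayed at 0.931, 0.836 and 0.841 in the Cdh1-high lines.

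Cldn3 was followed by Epcam (0.916), Tmc4 (0.897) and Rpe65 (0.890), the last above background in 4 lines. Cldn7 was followed by S100a14 (0.930), Zbtb32 (0.891) and Kcnk1 (0.891), and Cldn4 by Ret (0.815), Foxj1 (0.80) and Aldh1a2 (0.795), which were above background in 3, 5 and 7 lines. These genes of the 3 claudins kept r between 0.744 and 0.915 in the Cdh1-high lines. Tjp1 was followed by Vars2 (0.903), Cdc42se2 (0.903) and Il5ra (0.869), and Cldn1 by Nptx1 (0.903), Nkain1 (0.828) and Lox (0.822), of which Nkain1 was above background in 4 lines and Lox in none. F11r was followed by Vamp8 (0.941), 2310030G06Rik (0.938) and Arhgef5 (0.934), but with r of 0.151, 0.503 and 0.375 in the Cdh1-high lines, which leave out ASC-5193.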

How the data were processed

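Total RNA of 23 lines was hybridised to 1 Affymetrix array each. The authors deposited 1 table of log2 signals for 45101 probe sets. The submitters' processing notes name RMA and the study's supplementary methods name variance stabilisation, and which one made the table is not settled. No version of either is given in the sources used here. No raw intensities or depth were used, and the number of arrays limits the precision. Values were used as deposited after 64 control probe sets were left out. Of the remaining 45037 probe sets, 34945 have 1 symbol in the platform annotation, 932 several and 9160 none. A gene was read from its probe set with the highest mean.

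Fits were made with limma 3.58.1 in R 4.3.3 over all probe sets, with Benjamini-Hochberg adjustment over all of them and the mouse as a random block (duplicateCorrelation). Lines of the same mouse deviated together (median r of 0.417 over 15 pairs, −0.085 over the 238 other pairs). Nothing states separate cultures of a line, so p-values measure the spread between lines. The fit was tested on simulated data. The members and lists were chosen with earlier results of these data known. Besides the 9 members and Cdh1, the genes named were up to 6 of each list with the smallest adjusted p on the Cdh1 slope, each gene that fell, marker genes and, for each member, the 3 genes most like it; Prkcz, Magi3, Cgnl1, Pard3, Prkci and the claudins never above background were named after their values were seen. Alternatives were another block, 1 mean for each mouse, quantile normalisation, median centring, bright probe sets only, trended and robust variances, Epcam, each side of the gap, other probe sets, and leaving out each mouse or single lines. Promoters came from RefSeq (GRCm38.p6). Magi2, Cldn17 and Cldn20 have no probe set with 1 symbol and were not analysed here.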

Additional observations from a re-analysis of the deposited data

Results flagged for a closer look

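The slope of F11r on Cdh1 differed between the PPT lines and the other lines by −0.385 (SE 0.063, limma adjusted p = 0.00554), as an interaction term over the 23 lines. Without ASC-5193 it was −0.07 (SE 0.063, adjusted p = 0.942), in an alternative chosen after seeing the data. In ASC-5193 F11r stood at 4.21, and Krt8, Krt18 and Krt19 were below background in that line. The part of that line's missing keratin signal in the F11r value was not tested.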

How the results depend on the processing

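Of the 4265 probe sets that passed on the Cdh1 slope, 51.6% had a positive slope, and 38.2% did when arrays were centred on the median (1569 of 4110). With 1 mean for each mouse 2114 passed, and with Epcam as the measure 398 did, with 9 other tight junction genes rising in place of 15. In the lines above the gap, in those below it, and above it without mouse 15272, 0 probe sets, 0 members and 0 other tight junction genes passed. Leaving out each mouse in turn gave 2962 to 4550 probe sets, 5 to 7 members and 11 to 15 other tight junction genes. Slopes turned sign above the gap for Cldn4 (−0.90, SE 1.137, and −0.96, SE 0.814, without mouse 15272) and Cgn (−0.12, SE 0.305). They did so below it for Ocln (−0.27, SE 0.107), Tjp3 (−0.042, SE 0.115) and Cgn (−0.35, SE 0.079), and on 1 further probe set for Cldn1 (0.006, SE 0.015). Of these, only Ocln and Cgn below the gap had an unadjusted limma p under 0.05, and none passed, so a reversal is not shown. Without the block Cldn7 (0.46, adjusted p = 0.0346) and Cldn1 (−0.18, adjusted p = 0.0464) passed as well. The PPT comparison called 0 probe sets under every alternative run. Without ASC-5193 the Cdh1 slopes of 0 members differed between the kinds of line. A further Cdh1 probe set was not run, since 1 probe set carries that symbol alone. The settings that leave out ASC-5193 or mouse 15272 from the lines above the gap were chosen after seeing the data.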

Other observations

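Cldn18, a claudin of stomach and lung epithelium, was chosen here after its values were seen. Its signal was 11.55 in PPT-6051, 11.44 in B-6051 and 10.64 in PPT-5320, and between 2.67 and 4.63 in the other 20 lines. PPT-6051 and B-6051 share a mouse number and were both among the 3 high ones, and PPT-5320 is a line with low Cdh1. Its slope on Cdh1 was 0.12 (SE 0.17, limma adjusted p = 0.732).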
